A study of Homo sapiens with 6 samples.

Results

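The genes described here encode the ligands, receptors and secreted regulators of the Wnt pathway. They were chosen by gene symbol alone, as every gene of the series table named WNT, FZD, SFRP, DKK, RSPO, FRZB, WIF1, AXIN1, AXIN2, LRP5 or LRP6, and 41 of the 21134 listed genes matched. These were 17 Wnt ligands, 11 receptors (9 Frizzled genes with LRP5 and LRP6), 3 R-spondins, 8 secreted antagonists and the 2 Axin scaffold genes. The expression of these genes was measured by RNA sequencing in hiPSC-CMs, cardiomyocytes differentiated in culture, in a study of acute alcohol injury and its prevention by losartan, a blocker of the angiotensin receptor AT1R.

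Wnt ligands are secreted glycoproteins that bind Frizzled receptors. With the co-receptors LRP5 and LRP6 they stabilise β-catenin, which acts with TCF and LEF factors on target genes in the nucleus, and with other co-receptors such as ROR2 they act on cell polarity and calcium without β-catenin. SFRP proteins and FRZB bind the ligands outside the cell, DKK1 binds LRP5 and LRP6, R-spondins keep Frizzled receptors at the cell surface, and Axin proteins hold the complex that destroys β-catenin. In the heart Wnt signals through β-catenin first promote mesoderm and later oppose cardiomyocyte formation, while WNT5A and WNT11 are known for the pathway without β-catenin.

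The control group held 2 libraries of untreated hiPSC-CMs, the alcohol group 2 libraries of cells given 100 mM alcohol for 24 h, and the co-treated group 2 libraries of cells that received 1 μM losartan beside the same 100 mM alcohol, also for 24 h. No library received losartan without alcohol, so an effect of losartan alone was not measured. All cells came from H9, a single line that the labels call induced pluripotent and that is known as a human embryonic stem cell line. The differentiation protocol of the study itself acts on this pathway: the cells of all groups first received CHIR99021, which inhibits GSK3 and so stabilises β-catenin, and then IWR-1, which stabilises Axin. The labels do not say whether the libraries of a group came from separate cultures, so the p-values measure the spread between these libraries, which may be technical. In these bulk libraries a lower level in each cell and a smaller share of the cells that express a gene cannot be told apart.

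The libraries held 4898287 to 5051448 expected counts each, and the floor set for a gene at 0 was 3 counts, equal to 0.594 to 0.612 CPM (the count scaled to library size). Floors and counting intervals cover counting error only. The 8 cardiomyocyte markers (TNNT2, MYH6, MYH7 and others) summed to 17283 to 24447 FPKM, where FPKM is the count scaled to the length of the transcript and the depth of its library. The alcohol replicates differed most from each other, with a chi-square per degree of freedom of 7.81 against 4.79 in control and 4.71 in the co-treated group. In alcohol replicate 2 the cardiomyocyte sum was the lowest of the 6 libraries. MYL7 gave the largest part of this sum, with 9321 FPKM there. MYL7, MYL2, ACTN2 and TTN were at their lowest in this library, TNNT2 and MYH7 were not, and MYH6 and NKX2-5 were at their highest. Control replicate 2 lay close to it in MYL2 (863 against 821 FPKM) and in MYH6 (717 against 737 FPKM). In the remaining libraries MYL2 was 2139 to 2862 FPKM and MYH6 305 to 381 FPKM. TTN was 148 FPKM against 151 FPKM in control replicate 2, and NKX2-5 was 151 FPKM against 149 FPKM in alcohol replicate 1. The sum of 10 HIF-1 target genes was 2226 to 2583 FPKM in control and 1828 to 2071 FPKM in co-treated libraries. It was 1652 FPKM in alcohol replicate 1 and 827 FPKM in alcohol replicate 2, so both alcohol libraries lay below all the others. Among the marker lists for other cell types, the summed FPKM in control, alcohol and co-treated libraries was 421 to 465, 482 to 516 and 467 to 518 for 8 fibroblast genes. For 5 epicardial genes it was 9.09 to 11.7, 12.1 to 12.3 and 14.5 to 17.5. For 5 endothelial genes it was 5.00 to 5.47, 6.76 to 7.74 and 8.28 to 9.31. For 6 endoderm genes it was 37.2 to 38.5, 49.7 to 49.8 and 46.9 to 48.4. For 4 smooth muscle genes it was 1689 to 1926, 722 to 1451 and 991 to 1036, and for 5 genes of pluripotent cells 11.4 to 12.5, 12.2 to 15.2 and 10.4 to 19.3. KDR made up most of the endothelial sum, with 4.00 and 3.70 FPKM in control, 5.18 and 6.53 in alcohol and 6.67 and 7.70 in co-treated libraries. PECAM1, CDH5, TIE1 and VWF overlapped between control and exposed libraries, and none exceeded 0.78 FPKM. TBX18 made up most of the epicardial sum, at 6.87 to 9.14 FPKM in control and 9.92 to 15.0 FPKM in exposed libraries. UPK3B was also higher in all exposed libraries, ALDH1A2 was lower in them, and BNC1 and WT1 overlapped. No gene of these lists was at 0 in every library. The smooth muscle gene ACTA2 fell, with a log2 fold change of -1.25 ± 0.20 in the co-treated group against control (adjusted p = 0.0203) and of -1.14 ± 0.16 in all exposed libraries against control (adjusted p = 0.0127), and no other marker gene passed the test. The part of these cell types in the results on Wnt genes was not tested.

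Of the 41 genes, 27 had enough counts to be tested, which were 7 ligands, all 11 receptors, RSPO4, 6 antagonists and both Axin genes. The other 14 were WNT1, WNT2B, WNT4, WNT6, WNT7A, WNT8A, WNT8B, WNT9A, WNT10A, WNT10B, RSPO2, RSPO3, DKK2 and SFRP4, and none had more than 12 counts in any library. WNT1, WNT6, WNT8A, WNT8B, WNT10A and RSPO2 had no more than 1 count in any library. In 12 of the 41 genes the expected counts held fractions, so their reads were in part shared with other genes by the authors' estimate. These were WNT4, WNT7B, WNT9B, LRP5, LRP6 and 7 Frizzled genes (FZD1, FZD2, FZD3, FZD4, FZD5, FZD7 and FZD8).

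The genes placed among the secreted antagonists by family name were the most abundant of these transcripts, and their level was carried by DKK3 and SFRP1. DKK3 is a divergent member of the Dickkopf family, and whether it acts as a Wnt antagonist in these cells was not tested. It made up 43.0% to 49.3% of the summed FPKM of all Wnt genes in a library. SFRP1, which binds Wnt ligands, made up 17.7% to 22.8%. Among the ligands, WNT5A and WNT5B together made up 72.0% to 80.5% of the ligand FPKM. Among the Frizzled genes, FZD1, FZD2, FZD6 and FZD8 together made up 82.1% to 85.2%.

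**Figure D1:**
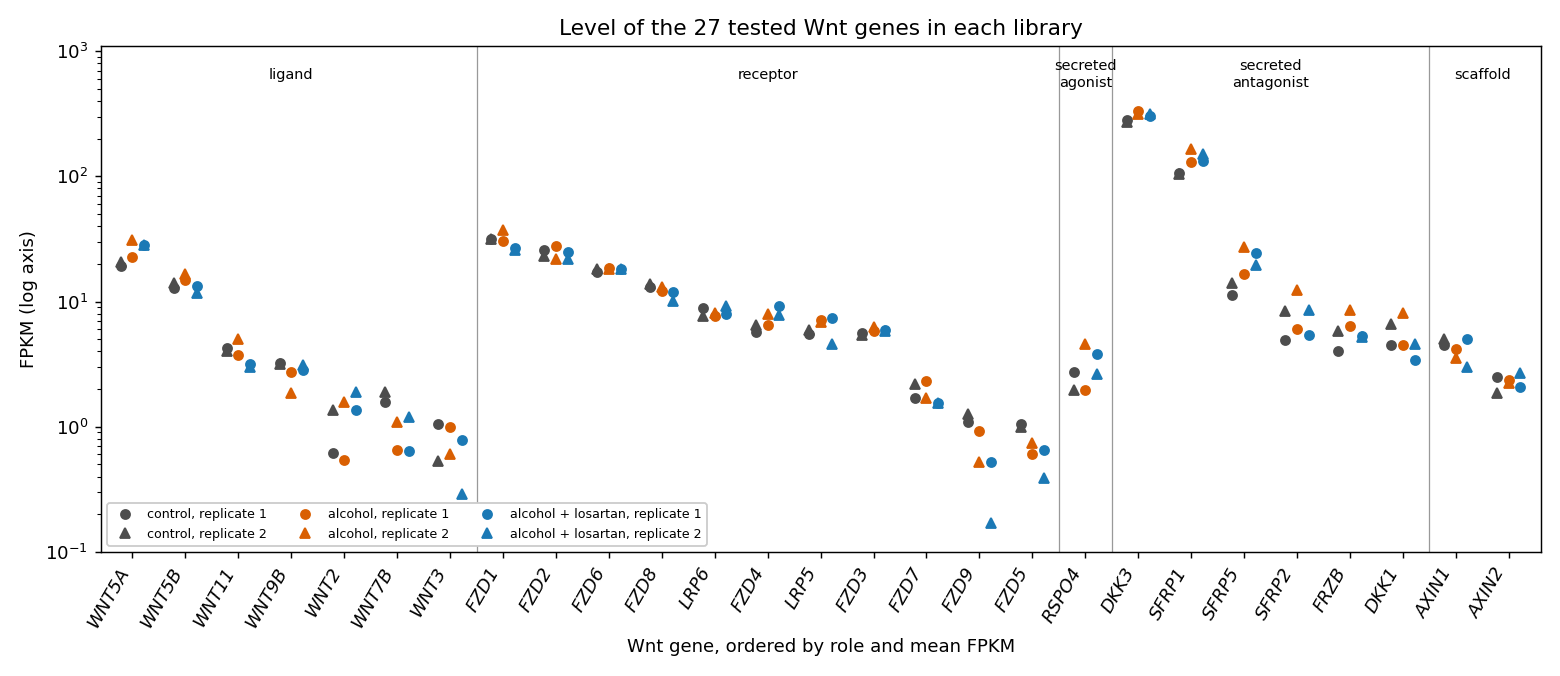
FPKM (log axis) of the 27 tested Wnt genes, ordered by role and by mean level, with 1 point per library (circle, replicate 1; triangle, replicate 2; grey, control; orange, alcohol; blue, alcohol with losartan). DKK3 and SFRP1 lay above 100 FPKM in every library, WNT5A led the ligands at 19.2 to 30.9 FPKM, and FZD9 reached the lowest value, 0.17 FPKM.

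No Wnt gene passed the test in any comparison (edgeR quasi-likelihood test, adjusted p at 0.05 over all 14926 genes tested). The groups were compared with and without losartan because the study asked what alcohol changes and what losartan changes on top of it. In alcohol against control 0 of 27 genes passed, where 0.0670% of all genes did, and 5 of 27 genes (18.5%) had an unadjusted p under 0.05, where 11.0% of all genes did. In the co-treated group against control 0 of 27 passed, where 0.362% of all genes did, and 9 of 27 (33.3%) had an unadjusted p under 0.05, where 12.6% of all genes did. In the co-treated group against alcohol 0 of 27 passed, where 0.0134% of all genes did, and 2 of 27 (7.41%) had an unadjusted p under 0.05, where 5.55% of all genes did. In the 4 alcohol-exposed libraries against the 2 control libraries 0 of 27 passed, where 0.556% of all genes did, and 7 of 27 (25.9%) had an unadjusted p under 0.05, where 13.5% of all genes did. DESeq2 called 0 Wnt genes in the first 3 of these comparisons and 1, SFRP1, in the last. The 3 comparisons with control share the control libraries, so their values are not independent of each other. The median log2 fold change of the 27 genes was 0.04, -0.01, -0.09 and -0.00 in the 4 comparisons in this order, and that of all genes was -0.0033, -0.0017, 0.0023 and -0.0066. With the one-sided value doubled, exact permutation of 2 libraries against 2 could at best give p = 0.333, and of 4 against 2 p = 0.133.

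**Figure D2:**
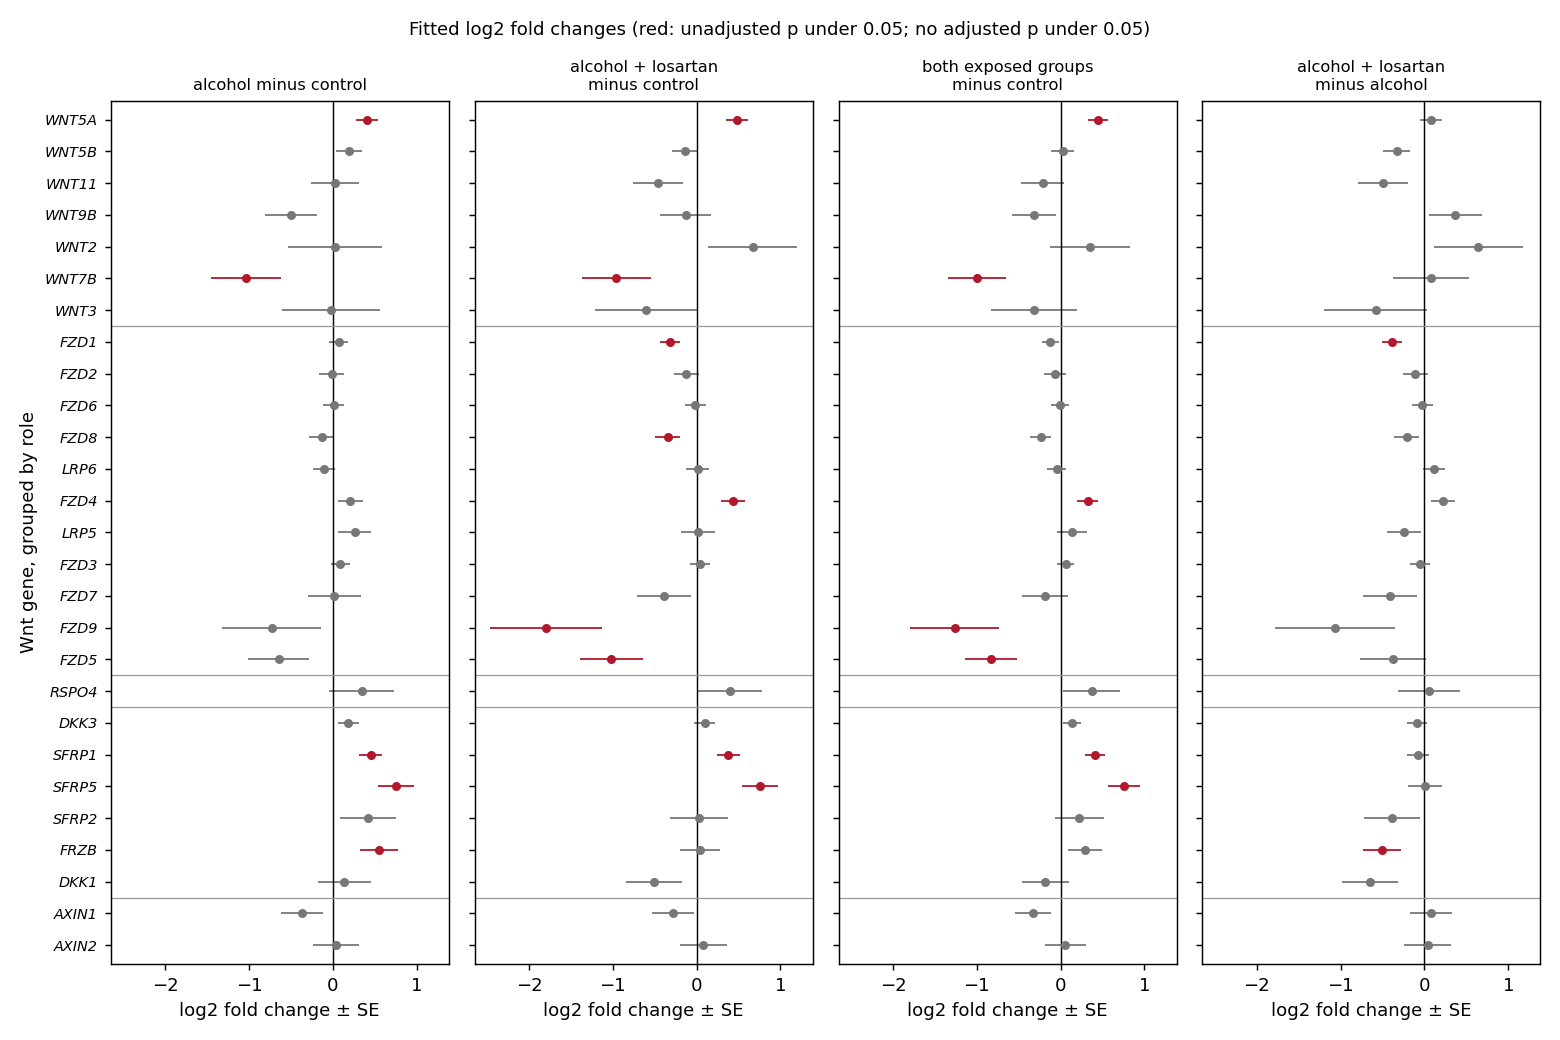
Fitted log2 fold change with its standard error (horizontal axis) of the 27 tested Wnt genes (vertical axis, grouped by role) in the 4 comparisons. Red marks an unadjusted p under 0.05; the red genes number 5, 9, 7 and 2 from left to right, none has an adjusted p under 0.05, and SFRP5, SFRP1, WNT5A and WNT7B are red in each comparison with control.

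Among the ligands WNT5A was the most abundant and was higher in the alcohol-exposed libraries, and WNT7B was lower in them. WNT5A, the best known ligand of the pathway without β-catenin, had 19.2 and 20.6 FPKM in control, 22.8 and 30.9 FPKM in alcohol and 28.5 and 28.5 FPKM in co-treated libraries. All 4 exposed libraries thus lay above both control libraries, and the alcohol replicates lay farther apart than the control replicates. The log2 fold change of WNT5A was 0.44 ± 0.12 (SE) in the exposed libraries against control (adjusted p = 0.108), 0.41 ± 0.13 in alcohol against control (adjusted p = 0.267) and 0.48 ± 0.13 in the co-treated group against control (adjusted p = 0.136). Between the co-treated and the alcohol group it was 0.07 ± 0.13 (adjusted p = 0.964), and -0.11 without alcohol replicate 1. The value for alcohol rested in large part on alcohol replicate 2. Without this library the log2 fold change of WNT5A in alcohol against control was 0.21, and without alcohol replicate 1 it was 0.59. Without alcohol replicate 1 the exposed libraries against control gave 0.54 with an adjusted p of 0.0218, and without alcohol replicate 2 they gave 0.35 with an adjusted p of 0.267. The gene overlaps an antisense gene, WNT5A-AS1, and the sources used here do not state that the counting used strand.

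The sequences before the transcription starts of WNT5A and SFRP5 are shown because these 2 genes had the lowest adjusted p-values of the Wnt genes in the exposed libraries against control. RefSeq places WNT5A on the minus strand at chr3:55465715-55505263 and SFRP5 on the minus strand at chr10:97766751-97771999 of GRCh38.p14. The sequences from RefSeq below span the 250 bases before a start of each gene, chr3:55487307-55487556 for the more upstream of 2 WNT5A starts and chr10:97772000-97772249 for SFRP5. The WNT5A window lies inside the RefSeq span of the gene and not before its outermost start. Its last 20 bases also stand in 2 of the 7 WNT5A transcripts, so it is in part transcribed sequence. Both sequences are printed 5′ to 3′ on the strand of the gene, and capitals mark the GC box (GGGCGG on either strand), the letters bound by SP factors.
WNT5A: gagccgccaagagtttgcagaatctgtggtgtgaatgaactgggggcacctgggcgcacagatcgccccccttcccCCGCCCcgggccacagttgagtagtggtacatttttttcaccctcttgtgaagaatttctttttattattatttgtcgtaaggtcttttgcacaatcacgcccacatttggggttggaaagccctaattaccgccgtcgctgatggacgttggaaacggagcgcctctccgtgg
SFRP5: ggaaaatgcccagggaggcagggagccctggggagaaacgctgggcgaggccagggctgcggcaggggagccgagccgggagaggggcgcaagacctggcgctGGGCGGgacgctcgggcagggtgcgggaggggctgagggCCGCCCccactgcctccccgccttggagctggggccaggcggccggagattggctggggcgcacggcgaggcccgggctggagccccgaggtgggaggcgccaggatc
The WNT5A sequence holds 1 GC box, 14 CpG dinucleotides and 52.8% G and C, and the SFRP5 sequence holds 2 GC boxes, 21 CpG dinucleotides and 76.8% G and C. The window of the other WNT5A start, chr3:55481399-55481648, holds 0 GC boxes, 18 CpG dinucleotides and 64.4% G and C. It also lies inside the span of the gene, and its last 20 bases stand in 1 of the 7 transcripts. None of the 3 windows holds the core letters of the TCF and LEF factors (CTTTGA on either strand) or of HIF factors (ACGTG on either strand). Over 35116 promoters of this length in RefSeq, 42.64% held a GC box, 11.21% the TCF and LEF core and 18.51% the HIF core, with a median of 58.0% G and C. The 19 promoters found for 17 of the tested Wnt genes had a median of 68.8% G and C, and 17 of the 19 held a GC box. The TCF and LEF core stood in 1 of the 19, at DKK1, and the HIF core in 1 of the 19, at RSPO4. These matches describe letters in the windows, and no binding was measured.

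WNT7B, a ligand that acts through β-catenin in many tissues, was expressed far lower than WNT5A. It had 1.57 and 1.90 FPKM in control, 0.65 and 1.09 FPKM in alcohol and 0.64 and 1.19 FPKM in co-treated libraries. These levels rested on 12.4 to 37.9 expected counts per library, and all 4 exposed libraries lay below both control libraries. The log2 fold change of WNT7B (chr22:45920366-45977162) was -0.997 ± 0.35 in the exposed libraries against control (adjusted p = 0.219), with -1.04 ± 0.41 for alcohol and -0.96 ± 0.41 for the co-treated group. Neither of the last values passed the test (adjusted p = 0.375 and 0.351). The co-treated value of WNT7B was -0.55 when co-treated replicate 1 was left out and -1.53 when replicate 2 was.

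The other ligands showed smaller or less regular differences. WNT5B, a close relative of WNT5A, had 12.88 and 14.01 FPKM in control, 15.0 and 16.6 FPKM in alcohol and 13.4 and 11.8 FPKM in co-treated libraries. It was thus highest in the alcohol libraries, and the co-treated and control libraries overlapped in FPKM. WNT11, a cardiac ligand of the pathway without β-catenin, had 4.23 and 4.03 FPKM in control, 3.71 and 4.99 FPKM in alcohol and 3.19 and 3.00 FPKM in co-treated libraries. For WNT11 the co-treated group against control gave a log2 fold change of -0.46 ± 0.30 (adjusted p = 0.573). WNT9B, known for its role in kidney development, had 3.23 and 3.17 FPKM in control, 2.75 and 1.87 FPKM in alcohol and 2.82 and 3.13 FPKM in co-treated libraries. All exposed libraries lay below control, but co-treated replicate 2 did so by less than the spread within the alcohol group. The RefSeq span of WNT9B overlaps that of LRRC37A2, as does the span of WNT3. WNT2, a ligand of early cardiac development, had 0.62 and 1.36 FPKM in control, 0.54 and 1.57 FPKM in alcohol and 1.36 and 1.91 FPKM in co-treated libraries, and its groups overlapped. WNT3 ranged from 0.29 to 1.05 FPKM with 5 to 18 counts.

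Receptor expression was led by 4 Frizzled genes, and none of these differed between groups beyond the test. FZD1 had 31.4 and 31.7 FPKM in control, 30.7 and 37.5 FPKM in alcohol and 26.6 and 25.6 FPKM in co-treated libraries. The co-treated libraries lay below the other 4. The log2 fold change of FZD1 was -0.32 ± 0.12 in the co-treated group against control (adjusted p = 0.278) and -0.39 ± 0.12 against alcohol (adjusted p = 0.793), while alcohol against control gave 0.07 ± 0.12. FZD8 had 13.1 and 13.9 FPKM in control, 12.2 and 13.1 FPKM in alcohol and 11.9 and 10.1 FPKM in co-treated libraries, with a log2 fold change of -0.34 ± 0.15 in the co-treated group against control (adjusted p = 0.353). The control and alcohol levels of FZD8 touched each other on the FPKM scale, whereas in CPM scaled by TMM all 4 exposed libraries lay below control. FZD2 had 25.8 and 23.1 FPKM in control, 27.9 and 21.8 FPKM in alcohol and 24.8 and 21.7 FPKM in co-treated libraries, and its groups overlapped. FZD6 had 17.2 and 18.3 FPKM in control, 18.4 and 18.3 FPKM in alcohol and 18.1 and 18.2 FPKM in co-treated libraries. The 6 libraries lay close together, and its log2 fold change in the exposed libraries against control was -0.00 ± 0.11.

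FZD4, FZD5 and FZD9 were the receptors whose exposed libraries did not overlap with control on either scale. FZD4, which also binds the ligand Norrin and acts in blood vessel growth, had 5.68 and 6.45 FPKM in control, 6.50 and 7.98 FPKM in alcohol and 9.16 and 7.79 FPKM in co-treated libraries. The lowest exposed library exceeded the highest control library by little. Its log2 fold change was 0.32 ± 0.13 in the exposed libraries against control (adjusted p = 0.288), and 0.44 ± 0.15 in the co-treated group against control (adjusted p = 0.230). FZD4 (chr11:86945679-86955395) overlaps the span of PRSS23, so its reads may be split with that gene. FZD5 had 1.05 and 0.99 FPKM in control, 0.60 and 0.74 FPKM in alcohol and 0.65 and 0.39 FPKM in co-treated libraries. Its log2 fold change in the exposed libraries against control was -0.83 ± 0.31 (adjusted p = 0.259), from 13 to 35.1 expected counts per library. FZD9 had 1.10 and 1.27 FPKM in control, 0.93 and 0.52 FPKM in alcohol and 0.52 and 0.17 FPKM in co-treated libraries. These values stand for 13 and 15 counts in control, 11 and 6 in alcohol and 6 and 2 in co-treated libraries, the last of them under the floor of 3 counts. Its log2 fold change in the exposed libraries against control was -1.26 ± 0.53 (adjusted p = 0.314), and that in the co-treated group against control was -1.80 ± 0.67 (adjusted p = 0.278). Without co-treated replicate 1 the last value was -2.76, and without co-treated replicate 2 it was -1.22.

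The remaining receptors overlapped between the groups in TMM-scaled CPM. FZD3, a receptor of the planar polarity pathway, had 5.63 and 5.44 FPKM in control, 5.86 and 6.28 FPKM in alcohol and 5.88 and 5.84 FPKM in co-treated libraries. In FPKM all 4 exposed libraries of FZD3 thus lay above control, with a log2 fold change of 0.06 ± 0.10 (adjusted p = 0.833). FZD7 had 1.70 and 2.21 FPKM in control, 2.33 and 1.70 FPKM in alcohol and 1.54 and 1.54 FPKM in co-treated libraries, so that both co-treated libraries lay at its lowest level. LRP5 had 5.51 and 5.87 FPKM in control, 7.14 and 6.85 FPKM in alcohol and 7.36 and 4.54 FPKM in co-treated libraries. The 2 alcohol libraries lay above control, and the co-treated libraries spanned the whole range. LRP6 had 8.90 and 7.60 FPKM in control, 7.73 and 8.07 FPKM in alcohol and 7.96 and 9.22 FPKM in co-treated libraries. The receptor genes together had 117 and 117 FPKM in control, 120 and 123 FPKM in alcohol and 114 and 105 FPKM in co-treated libraries.

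**Figure D3:**
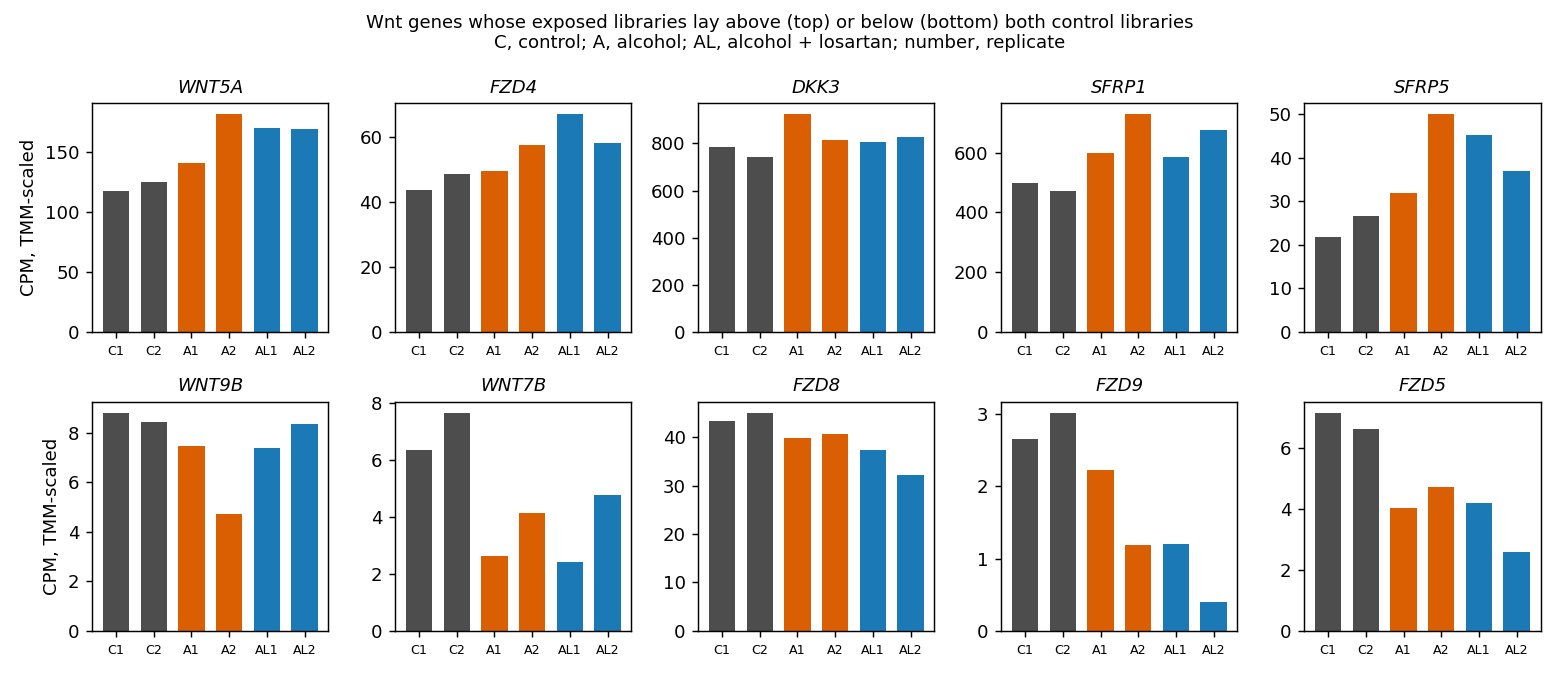
TMM-scaled CPM (bars, linear axis from 0) in each library of the 5 Wnt genes whose 4 exposed libraries all lay above both control libraries (top) and of the 5 whose exposed libraries all lay below (bottom). C, A and AL stand for control, alcohol and alcohol with losartan, followed by the replicate number; against the control level the gap between the groups is wide for FZD5 and WNT7B and narrow for WNT9B, FZD4 and DKK3.

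On the TMM-scaled CPM, the 4 exposed libraries all lay above both control libraries for 5 of the 27 genes (WNT5A, FZD4, DKK3, SFRP1 and SFRP5), and this held for 11.8% of all genes tested. They all lay below for another 5 (WNT7B, WNT9B, FZD5, FZD8 and FZD9), and this held for 11.3% of all genes tested. The genes that were higher comprised 3 secreted antagonists, 1 ligand and 1 receptor, and those that were lower comprised 2 ligands and 3 receptors.

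Among the tested antagonists, DKK3, SFRP1 and SFRP5 had all exposed libraries above control, and FRZB, SFRP2 and DKK1 overlapped with control. The summed level of the antagonists was 414 and 412 FPKM in control, 496 and 536 FPKM in alcohol and 477 and 501 FPKM in co-treated libraries. Every exposed library exceeded both controls. DKK3, placed here by its family name, and SFRP1 made up most of this sum. The ligand sum was also higher in every exposed library, at 48.5 to 59.0 FPKM against 44.5 to 46.9 FPKM in control. The median log2 fold change of the 6 tested antagonists was 0.44 in alcohol against control and 0.07 in the co-treated group against control, and 6 and 5 of the 6, respectively, had a fold change above 0, as did 7376 and 7429 of the 14926 genes tested. In the co-treated group against alcohol the median was -0.24 and 1 of the 6 was above 0, against 7510 of all genes. None passed the test, and with libraries shared between the comparisons these counts are a description.

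SFRP1 was the second most abundant Wnt gene. It had 107 and 103 FPKM in control, 130 and 167 FPKM in alcohol and 132 and 150 FPKM in co-treated libraries. The lowest exposed library stood well above both controls. Its log2 fold change was 0.42 ± 0.12 in the exposed libraries against control (adjusted p = 0.130 in edgeR and 0.0447 in DESeq2), 0.45 ± 0.13 in alcohol against control (adjusted p = 0.226) and 0.38 ± 0.13 in the co-treated group against control (adjusted p = 0.262). Without alcohol replicate 1 the value for the exposed libraries was 0.49 with an adjusted p of 0.0364 in edgeR, and without alcohol replicate 2 it was 0.34 with an adjusted p of 0.287. The co-treated and alcohol groups differed by -0.08 ± 0.13 (adjusted p = 0.966), and this sign turned to 0.07 without alcohol replicate 2.

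SFRP5, another antagonist that binds ligands and whose protein is known to oppose WNT5A, had 11.3 and 14.1 FPKM in control, 16.7 and 27.5 FPKM in alcohol and 24.6 and 19.7 FPKM in co-treated libraries. All exposed libraries lay above control, and the alcohol replicates differed more from each other than alcohol replicate 1 did from control. Its log2 fold change of 0.76 ± 0.19 in the exposed libraries against control had the lowest adjusted p of the Wnt genes (adjusted p = 0.0956). Alcohol against control gave 0.75 ± 0.21 (adjusted p = 0.194) and the co-treated group against control 0.76 ± 0.21 (adjusted p = 0.147). Without alcohol replicate 1 SFRP5 passed the test in alcohol against control, with a log2 fold change of 1.05 (adjusted p = 0.0240), and in the exposed libraries against control, with 0.90 (adjusted p = 0.0108). Without alcohol replicate 2 the same values were 0.40 (adjusted p = 0.919) and 0.58 (adjusted p = 0.217). Alcohol replicate 2 was the library with the highest level of WNT5A, SFRP1 and SFRP5. WNT5B, WNT11, FZD1, FZD3, RSPO4, DKK1, FRZB and SFRP2 also had their highest FPKM in this library. Alcohol replicate 2 was also the library with the lowest sums of cardiomyocyte markers, smooth muscle markers and HIF-1 targets. Within the cardiomyocyte list, MYH6 and NKX2-5 were highest in alcohol replicate 2, and control replicate 2 lay close to it in MYH6 and MYL2. The HIF-1 sum, most of it from LDHA, ENO1 and PGK1, was also lower in alcohol replicate 1 than in the control and co-treated libraries. The part of the state of alcohol replicate 2 in the values was not tested.

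**Figure D4:**
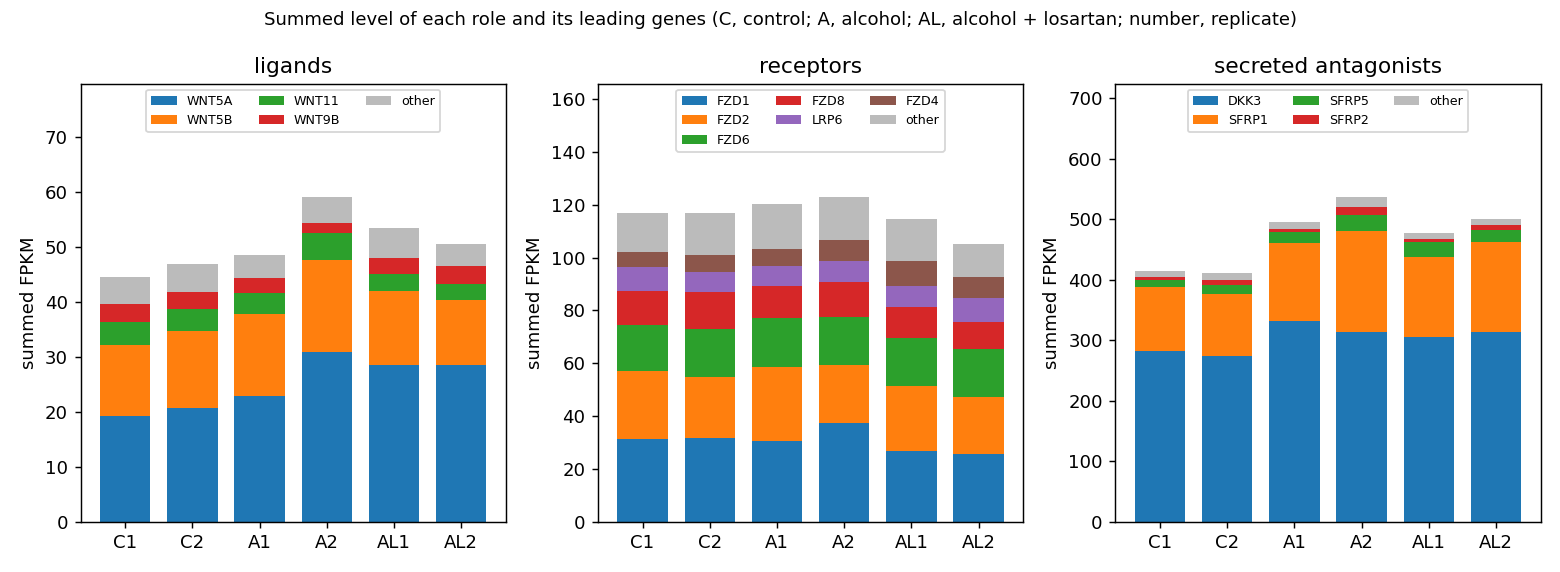
Summed FPKM (bars, linear axis from 0) of ligands, receptors and secreted antagonists in each library, split by the leading genes of each role (colours) and the rest (grey); C, A and AL stand for control, alcohol and alcohol with losartan, followed by the replicate number. Antagonists, with DKK3 as the largest part, sum to 412 and 414 FPKM in control and to 477 to 536 FPKM in the exposed libraries. Ligands lie at 44.5 to 59.0 FPKM and receptors at 105 to 123 FPKM.

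DKK3 had 282 and 273 FPKM in control, 332 and 313 FPKM in alcohol and 306 and 313 FPKM in co-treated libraries. All exposed libraries lay above control, but the log2 fold change was small, at 0.14 ± 0.11 in the exposed libraries against control (adjusted p = 0.617). FRZB, a cartilage and heart antagonist related to the SFRP genes, had 4.06 and 5.85 FPKM in control, 6.40 and 8.50 FPKM in alcohol and 5.28 and 5.22 FPKM in co-treated libraries. Both alcohol libraries were above the other 4, with a log2 fold change of 0.55 ± 0.23 against control (adjusted p = 0.397), and the co-treated group differed from alcohol by -0.51 ± 0.23 (adjusted p = 0.896). The first value of FRZB was 0.33 without control replicate 1 and 0.83 without control replicate 2, and the second was -0.33 without alcohol replicate 2. DKK1, the antagonist that binds LRP5 and LRP6, had 4.49 and 6.59 FPKM in control, 4.49 and 8.13 FPKM in alcohol and 3.39 and 4.62 FPKM in co-treated libraries. SFRP2 had 4.95 and 8.34 FPKM in control, 6.04 and 12.3 FPKM in alcohol and 5.41 and 8.55 FPKM in co-treated libraries. The groups overlapped for both DKK1 and SFRP2, and their alcohol replicates lay farther apart than their control replicates.

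RSPO4, the only tested R-spondin, had 2.75 and 1.96 FPKM in control, 1.95 and 4.59 FPKM in alcohol and 3.81 and 2.62 FPKM in co-treated libraries. The groups overlapped, and the log2 fold change in the exposed libraries against control was 0.37 ± 0.34 (adjusted p = 0.686). AXIN2, a feedback gene switched on by β-catenin and often used as its readout, had 2.50 and 1.86 FPKM in control, 2.36 and 2.24 FPKM in alcohol and 2.06 and 2.70 FPKM in co-treated libraries. The control libraries enclosed both alcohol libraries, and the log2 fold change of AXIN2 in the exposed libraries against control was 0.06 ± 0.24 (adjusted p = 0.950). AXIN1, the Axin that is expressed without this feedback, had 4.53 and 4.98 FPKM in control, 4.20 and 3.53 FPKM in alcohol and 5.01 and 2.99 FPKM in co-treated libraries, with a log2 fold change of -0.33 ± 0.22 (adjusted p = 0.559).

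The other genes of the pathway were read from a list of 48, of which 47 were in the table and 41 could be tested. None passed in any comparison, and 1, 6, 1 and 6 of the 41 had an unadjusted p under 0.05 in alcohol against control, the co-treated group against control, the co-treated group against alcohol and the exposed libraries against control, respectively (2.44%, 14.6%, 2.44% and 14.6%). Over all genes tested these shares were 11.0%, 12.6%, 5.55% and 13.5%, so the pathway list lay near them or below them, and the genes named next are a description. In alcohol against control this gene was CSNK1A1, the kinase that first phosphorylates β-catenin, with a log2 fold change of -0.30 ± 0.11 (adjusted p = 0.327). In the exposed libraries against control the 4 higher genes were ROR2, the co-receptor of WNT5A, with 0.37 ± 0.14, RNF43, which removes Frizzled receptors from the surface, with 0.50 ± 0.22, the APC relative APC2 with 1.15 ± 0.44 and the tankyrase TNKS, which marks Axin for breakdown, with 0.28 ± 0.11. The 2 lower genes were TCF7, a nuclear partner of β-catenin, with -0.76 ± 0.29, and CSNK1A1 with -0.22 ± 0.10. Adjusted p-values of these 6 genes lay between 0.253 and 0.336. The co-treated group against control gave the same 4 higher genes, with TCF7 at -1.13 ± 0.35 and the target gene APCDD1 at -0.40 ± 0.16 as the lower ones, and the co-treated group against alcohol gave the polarity gene SCRIB at -0.33 ± 0.15. ROR2 had 169 to 269 counts per library and APC2 had 7 to 25.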

How the data were processed

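Groups follow the treatment given in the labels. For every gene the authors deposited an expected count (an estimate of reads, not always whole) and the FPKM, the count scaled by transcript length and reads. The submitters' processing notes name HISAT2 2.0.4, Bowtie2 2.2.5, RSEM 1.2.12 and hg38, without their roles. Genes left out of a library's table were set to 0. Expected counts were rounded and tested with edgeR 4.0.16 (quasi-likelihood test, TMM, filterByExpr, 6 libraries in 1 fit, two-sided, Benjamini-Hochberg adjustment over all genes, called at 0.05). Fold changes come from this fit, and levels are FPKM or TMM-scaled CPM. The test was also run on simulated counts that took their spread from this fit and held larger changes than those of most Wnt genes. The Wnt genes, the other lists and the comparisons were chosen with earlier results of these data known. Values in every library were given for genes with a mean FPKM of at least 1 or an unadjusted p under 0.05 in any comparison. Coordinates, gene spans and promoter sequences came from RefSeq GRCh38.p14, matched by NCBI Gene number. Alternatives were DESeq2 1.42.0, its size factors in edgeR, limma 3.58.1 on log2(FPKM + 1) and log2(FPKM + 0.1), a fit with no filter on low counts, a filter of 10 counts per library, a replicate block, the compared groups alone, and each library left out. R 4.3.3, Python 3.11.15, pandas 2.3.3 and matplotlib 3.10.9 were used.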

Additional observations from a re-analysis of the deposited data

Results flagged for a closer look

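WNT5B was the only one of the 27 tested Wnt genes whose libraries in 1 exposed group all lay above both controls in TMM-scaled CPM while those of the other exposed group all lay below. It had 29.1 and 30.9 CPM in control, 33.4 and 35.2 CPM in both alcohol libraries, above control, and 28.6 and 25.9 CPM in both co-treated libraries, below control. The log2 fold change between the co-treated and the alcohol group was -0.33 ± 0.16 (SE), and this difference did not pass the test (adjusted p = 0.899, edgeR). In FPKM the co-treated and control levels overlapped.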

How the results depend on the processing

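The count of Wnt genes called was 0 in 52 of 55 alternative counts. In alcohol against control it ranged from 0 to 1 when 1 library was left out (SFRP5, without alcohol replicate 1), and in the exposed libraries against control from 0 to 3 (SFRP1, SFRP5 and WNT5A, without alcohol replicate 1). A lone library left in a group was assumed to vary like the other groups. DESeq2 called 1 in the exposed libraries against control (SFRP1). The 23 fold changes with an unadjusted p under 0.05 kept their sign in all 313 alternative values, and 5 of these passed an adjusted p of 0.05. The 23 fold changes were chosen by their p-value in the edgeR fit of all 6 libraries, and the alternatives reuse these libraries. The kept signs are therefore a description and no separate support. With the replicate block 0 Wnt genes were called in every comparison. The correlations of replicate differences between groups were 0.114, -0.016 and 0.041, so the numbers were not taken to pair the libraries. Over all genes the block gave 48, 136, 5 and 256 calls against 10, 54, 2 and 83 without it, and DESeq2 gave 72, 128, 5 and 158, in alcohol against control, co-treated against control, co-treated against alcohol and exposed against control. Over all genes, counts without 1 library ran from 1 to 220, 2 to 184, 1 to 24 and 6 to 407, limma on log2(FPKM + 1) gave 0, 2, 1 and 0 calls and on log2(FPKM + 0.1) 2, 3, 2 and 5, no expression filter gave 2, 15, 1 and 27, and at least 10 counts in every library gave 26, 78, 0 and 144. The compared groups alone gave 3, 158 and 4 in the first 3 comparisons. FZD9 (2 to 15 counts) and WNT7B (12.4 to 37.9) had low counts, and the effect of depth on their values was not tested.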
